A study of Mus musculus with 8 samples.

Results

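The regions described here were the 1000 strongest distal elements that were open at both temperatures in SN4741 cells. Merging the peaks of 8 ATAC-seq libraries gave 98066 regions. All 8 libraries shared 44861 of them, and 41522 of these were narrower than 5 kb. Of those, 20860 on chromosomes 1 to 19 and X lay more than 5 kb from any GENCODE M21 transcription start site (TSS). The 1000 members were chosen by their peak height: within each list the best peak of a region was ranked by its −log10 q-value, and the regions with the lowest mean rank percentile over the 8 lists were kept. The other 19860 distal regions called in all 8 libraries served as the comparison, together with the next 1000 by rank, which are among them. The heights of the members are therefore given as a description, without a test.

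In ATAC-seq a transposase inserts sequencing adapters into accessible chromatin, and the fragments between insertions are sequenced and stacked along the genome. SN4741 is a mouse line from embryonic substantia nigra, immortalised with a temperature-sensitive T antigen that is driven by a tyrosine hydroxylase promoter, and its karyotype is abnormal and unstable. In 4 libraries the cells were kept at the permissive temperature of 37 °C in 10% serum, and in 4 libraries they had spent 48 h at the non-permissive temperature of 39 °C in 0.5% serum, so that temperature, serum and time in culture changed together and cannot be told apart. Each library was made from 50000 cells with 12 cycles of amplification, and the sources used here do not state whether replicates were separate cultures, so the spread between libraries may be technical.

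Distal open regions hold enhancers, which bind transcription factors and act on promoters over a distance, and insulators, which bind CTCF and anchor chromatin loops. AP-1, a dimer of Fos and Jun proteins, opens enhancers in growing and stimulated cells, often together with TEAD factors, the DNA-binding partners of the growth regulators YAP and TAZ, and with RUNX factors. SP and KLF factors bind GC-rich sequence, which is typical of promoters. Reads from repeated sequence or from copies of mitochondrial DNA in the nuclear genome can also pile up into tall and narrow peaks.

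The sequences within 100 bp of the summit are shown for well-ranked members that held a site of one of 4 factors, because the site content of these windows is the main feature compared below. Sequences are from the plus strand of the RefSeq GRCm38.p6 assembly (mm10 coordinates), 5′ to 3′, and capitals mark the site named. Sites were TGACTCA for AP-1, ACATTCC for TEAD and TGTGGTT for RUNX, on either strand, and the core consensus of CTCF. The best-ranked member with a RUNX site was the repeat-rich region of rank 1, described below, whose window is not shown, and rank 13 was the next.
AP-1, rank 19, intron of Pvt1, chr15:62328476-62328676: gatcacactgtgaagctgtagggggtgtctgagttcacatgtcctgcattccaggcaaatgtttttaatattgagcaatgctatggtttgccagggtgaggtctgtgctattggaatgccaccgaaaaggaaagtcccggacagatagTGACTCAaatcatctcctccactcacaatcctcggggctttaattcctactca
AP-1, rank 24, intron of Gas7, chr11:67515556-67515756: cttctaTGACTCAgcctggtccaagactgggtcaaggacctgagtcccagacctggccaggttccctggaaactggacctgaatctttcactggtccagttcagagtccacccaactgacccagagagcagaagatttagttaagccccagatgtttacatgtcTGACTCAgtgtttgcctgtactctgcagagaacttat
TEAD, rank 23, intron of Agap1, chr1:89555326-89555526: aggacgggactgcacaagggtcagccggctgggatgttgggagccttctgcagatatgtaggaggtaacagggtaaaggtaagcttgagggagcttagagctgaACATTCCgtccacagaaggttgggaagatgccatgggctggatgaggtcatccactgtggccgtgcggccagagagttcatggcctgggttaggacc
TEAD, rank 26, intron of Nedd9, chr13:41367153-41367353: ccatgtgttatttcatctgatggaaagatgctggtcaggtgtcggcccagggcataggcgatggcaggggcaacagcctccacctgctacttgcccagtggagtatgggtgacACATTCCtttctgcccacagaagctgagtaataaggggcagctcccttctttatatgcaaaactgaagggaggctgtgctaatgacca
RUNX, rank 13, intron of Trpm3, chr19:22917045-22917245: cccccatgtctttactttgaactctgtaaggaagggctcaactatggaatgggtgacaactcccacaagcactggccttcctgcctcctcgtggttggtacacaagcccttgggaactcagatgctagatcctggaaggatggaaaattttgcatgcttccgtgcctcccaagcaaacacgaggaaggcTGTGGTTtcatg
CTCF, rank 30, between genes, chrX:75674220-75674420: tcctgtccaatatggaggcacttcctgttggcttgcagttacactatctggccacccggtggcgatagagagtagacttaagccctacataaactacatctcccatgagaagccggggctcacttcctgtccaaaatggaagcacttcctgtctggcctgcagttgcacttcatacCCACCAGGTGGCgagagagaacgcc
CTCF, rank 79, intron of Dlgap1, chr17:70738343-70738543: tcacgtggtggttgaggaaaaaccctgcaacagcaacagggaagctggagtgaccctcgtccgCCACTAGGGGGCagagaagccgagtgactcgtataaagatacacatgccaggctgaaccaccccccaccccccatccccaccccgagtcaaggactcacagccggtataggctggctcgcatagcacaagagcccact

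Of these, the region in the long non-coding gene Pvt1 (chr15:62326829-62330919, 4091 bp wide) was the best-ranked member with an AP-1 site. Its fold enrichment was 122.8, 129.2, 117.7 and 119.2 at 37 °C and 123.0, 126.2, 138.8 and 80.8 at 39 °C in replicates 1 to 4. The region in Gas7 (chr11:67514459-67516839), which holds a pair of AP-1 sites near opposite ends of its window, had values of 106.6, 121.6, 111.8 and 111.2 at 37 °C and 123.6, 126.0, 148.9 and 75.6 at 39 °C. In both regions replicate 4 at 39 °C was the lowest of the 8 libraries, while the other 3 at 39 °C lay above all 4 at 37 °C in Gas7. In Pvt1, 2 of these 3 lay within the range of 37 °C and replicate 3 above it.

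Fold enrichment is the ratio of the fragment pileup at a summit to one genome-wide background per library, as the peak caller gave it. The caller kept 49.8 to 169 M fragments per library. The median fold enrichment of the members was 64.1, 65.4, 62.9 and 64.8 at 37 °C and 69.9, 67, 76.6 and 41.1 at 39 °C in replicates 1 to 4. In the other distal regions it was 10.7, 10.7, 10.2 and 11.5 at 37 °C and 10.8, 10.1, 11.7 and 6.64 at 39 °C. Replicate 4 at 39 °C was low in both sets. Over all 44861 regions called in all 8 libraries its median was 9.67, against 15.1 to 17.5 in the other 7 libraries.

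**Figure D1:**
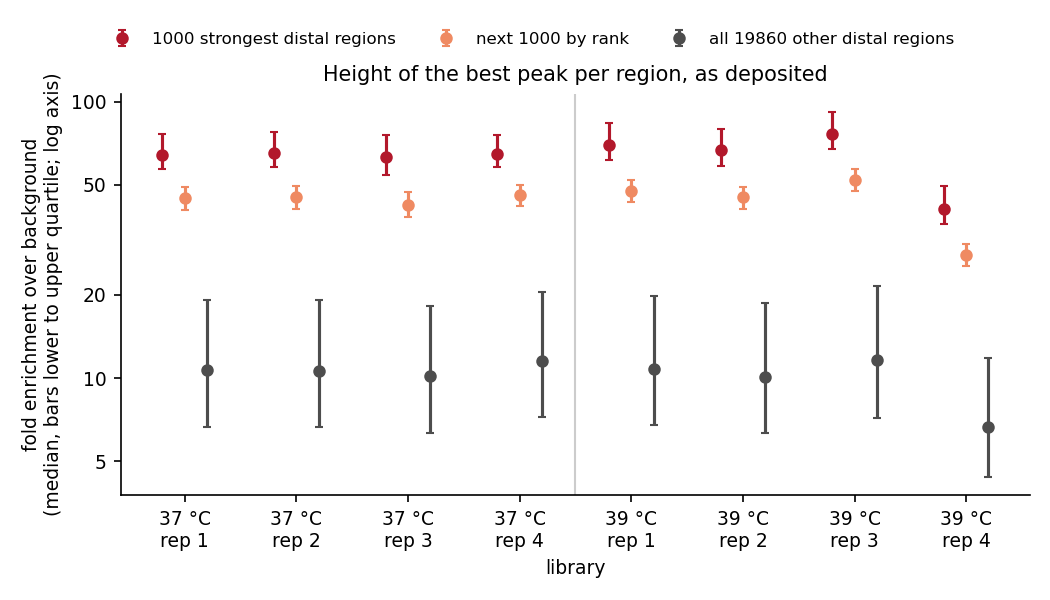
Fold enrichment of the best peak per region (log axis) in each of the 8 libraries for the 1000 members, the next 1000 by rank and all 19860 other distal regions called in all 8. Points are medians over regions and bars span the 25th to 75th percentile; the members' medians lie between 62.9 and 76.6 in 7 libraries and at 41.1 in replicate 4 at 39 °C.

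The limit of 1000 fell in a continuous range of heights. The last member, an intronic region of Gm42707 (chr3:143911770-143913599), had a mean rank percentile of 12.497, and the first region outside (chrX:11793652-11796834, nearest protein-coding TSS Bcor) had 12.499. The last member had a fold enrichment of 49.1, 51.0, 45.8 and 51.9 at 37 °C and 56.8, 56.6, 64.5 and 32.2 at 39 °C. The first region outside had 54.6, 50.6, 46.3 and 54.3 at 37 °C and 53.8, 53.9, 65.2 and 30.9 at 39 °C. Membership rested little on any single library, since 97.9% to 98.7% of the members were kept when 1 list was left out of the ranking.

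Repeated sequence was found at the very top of the ranking. Members were taken as prone to mapping artefacts when their summit window matched the mitochondrial genome over at least 50 bp, or when at least 50% of its words of 31 bases occurred more than once in the genome. This was true of 29 members (2.90%) and of 516 of the 19860 other distal regions (2.60%), but of 7 of the best 11 and 10 of the best 100. Of these 29 regions, 16 were narrower than 1 kb, a width that only 23 of the 1000 members had. In 8 members the window held 12 to 32 words of telomere repeat, against 4 of the other distal regions that held any.

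The best-ranked member of all was a 510 bp region between genes (chr3:5860339-5860848), in which 59.1% of the words were repeated. Its fold enrichment was 237, 414, 437 and 297 at 37 °C and 461, 427, 528 and 419 at 39 °C. The next was a 422 bp exonic region of Lars2, the mitochondrial leucyl-tRNA synthetase (chr9:123461792-123462213), with 63.7% of words repeated. It had values of 189, 348, 378 and 242 at 37 °C and 400, 365, 464 and 379 at 39 °C. The regions of ranks 3, in an intron of Cmss1 (chr16:57391113-57391701), and 5, between genes (chr6:3200768-3201675), were also repeated, in 64.9% and 70.2% of their words, and the 2162 bp region of rank 4 (chr19:61265221-61267382) was not, at 1.75%. At ranks 1 and 2 the 2 most deeply sequenced libraries, replicates 1 and 4 at 37 °C, gave the lowest values. Replicate 4 at 39 °C was not the lowest of the 8 libraries there, unlike in the AP-1 regions above. At rank 1 it was still the lowest of those at 39 °C.

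In all, 3 members carried a match to mitochondrial DNA, at ranks 6, 40 and 732. The first of them (chr12:97061428-97061816) matched over 201 bp at 99.5% identity. Values were 169, 303, 376 and 192 at 37 °C and 176, 218, 182 and 381 at 39 °C, so that the libraries of each temperature spread over nearly the same range. The median within-temperature SD of the log2 level was 0.264 in the 29 regions and 0.083 in the other members. The overall counts of members called between temperatures are therefore also given without the 29.

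The members were rich in AP-1 sites, as were distal regions in general. An AP-1 site lay within 100 bp of the summit in 380 members, or 38.0% (Wilson 95% interval 35.0% to 41.0%), in 44.4% of the next 1000 and in 36.3% of all other distal regions. The share of members was thus close to that of the other regions and below that of the next 1000. Along the ranking in bins of 1000 it reached 46.1% in bin 6 and fell to 23.6% in bin 20. More than 1 AP-1 site was found in 6.4% of members, in 8.5% of the next 1000 and in 4.98% of all other regions, with up to 6 sites in 1 member.

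AP-1 sites of the members were spread more widely around the summit. Their median distance from it was 83 bp in the members, 61 bp in the next 1000 and 49 bp in the other distal regions, over sites within 250 bp. Within 25 bp of the summit the density was 2.14 sites per kb in the members and 2.74 in the other regions. From 100 to 250 bp it was 1.01 in the members and 0.400 in the other regions. Over the window of 250 bp the share of regions with a site was 55.7% in members and 44.2% in the others, and over the whole region it was 73.4% and 57.4%. The members were also wider, with a median of 2632.5 bp against 1367.5 bp, and width rose with height along the whole ranking.

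**Figure D2:**
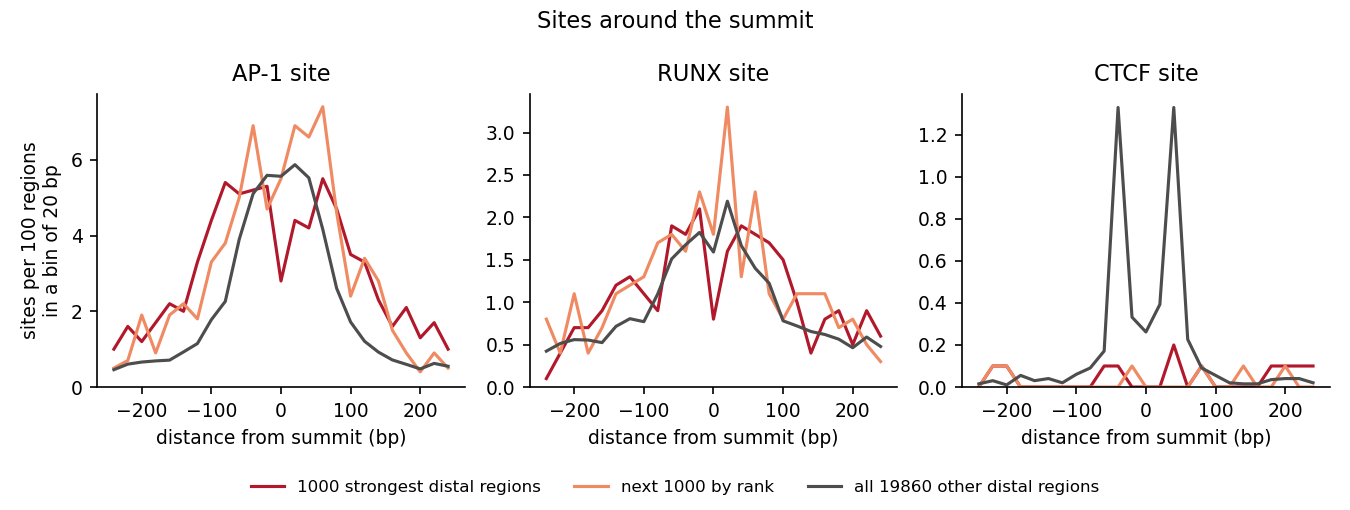
Sites per 100 regions in bins of 20 bp against the distance from the summit (bp) for AP-1, RUNX and CTCF, in the 1000 members, the next 1000 by rank and all 19860 other distal regions. AP-1 sites of the members form a broader profile than those of the other regions, and the CTCF sites that flank the summit in the other regions are nearly missing from the members.

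A TEAD site was present in 10.0% of members (8.29% to 12.0%), in 10.3% of the next 1000 and in 8.16% of all other distal regions. A RUNX site was present in 13.8% of members (11.8% to 16.1%), in 16.2% of the next 1000 and in 13.5% of all others. Within 250 bp of the summit the shares were 17.3% in members and 13.5% in all others for TEAD, and 23.1% and 20.8% for RUNX. In members, AP-1 and TEAD sites shared a window in 47 regions (4.70%), where the product of the separate shares is 3.8%. In the other distal regions these values were 2.27% and 2.96%. AP-1 and RUNX sites shared a window in 53 members (5.30%), close to the product of 5.24%.

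CTCF sites were rare. The core consensus was found near the summit in 5 members, or 0.500% (0.214% to 1.17%), in 0.2% of the next 1000 and in 841 other distal regions, or 4.23%. The share rose along the ranking to 8.80% in bin 18. A looser spelling with free letters gave 4.5% of members and 9.41% of the others, and a search of the whole region gave 3.00% and 5.90%, so the members had the lower share under each. No CTCF site of a member lay within 25 bp of the summit, and the median distance was 180.5 bp, over 11 sites, against 36.5 bp in the other regions.

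The best-ranked member with a CTCF site (chrX:75673107-75674883, shown above) carried it close to the edge of the window. Its fold enrichment was 94.8, 117.3, 114.2 and 98.9 at 37 °C and 120.4, 121.8, 148.8 and 79.5 at 39 °C. That in Dlgap1 (chr17:70736958-70740334) had 101.2, 106.3, 95.5 and 100.2 at 37 °C and 105.7, 103.2, 121.4 and 65.1 at 39 °C. Replicate 4 at 39 °C was again the lowest library in both, and the other 7 overlapped between temperatures in Dlgap1.

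GC-rich sites were found more often in the members. SP/KLF sites (GGGCGGGG) were present in 4.90% of members (3.73% to 6.42%), in 2.90% of the next 1000 and in 1.78% of all other distal regions. MYC/USF E-boxes (CACGTG) were present in 5.00% of members (3.81% to 6.53%), in 3.5% of the next 1000 and in 2.84% of all others. AP-2 sites (GCCNNNGGC) were present in 11% of members (9.21% to 13.1%), an interval that holds the 9.4% of the next 1000, and in 7.38% of all others. E-boxes of the spelling CAGCTG, which bHLH factors bind, differed less, at 18.6% and 16.1%. GATA sites (AGATAA) were less frequent, at 5.70% against 7.72%. The consensus of NFI, REST and C/EBP (TTGCGCAA) was found in none of the members. It was found in 9, 12 and 19 of the other regions, or 0.0453%, 0.0604% and 0.0957%. At such low shares its absence does not set the 1000 members apart.

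**Figure D3:**
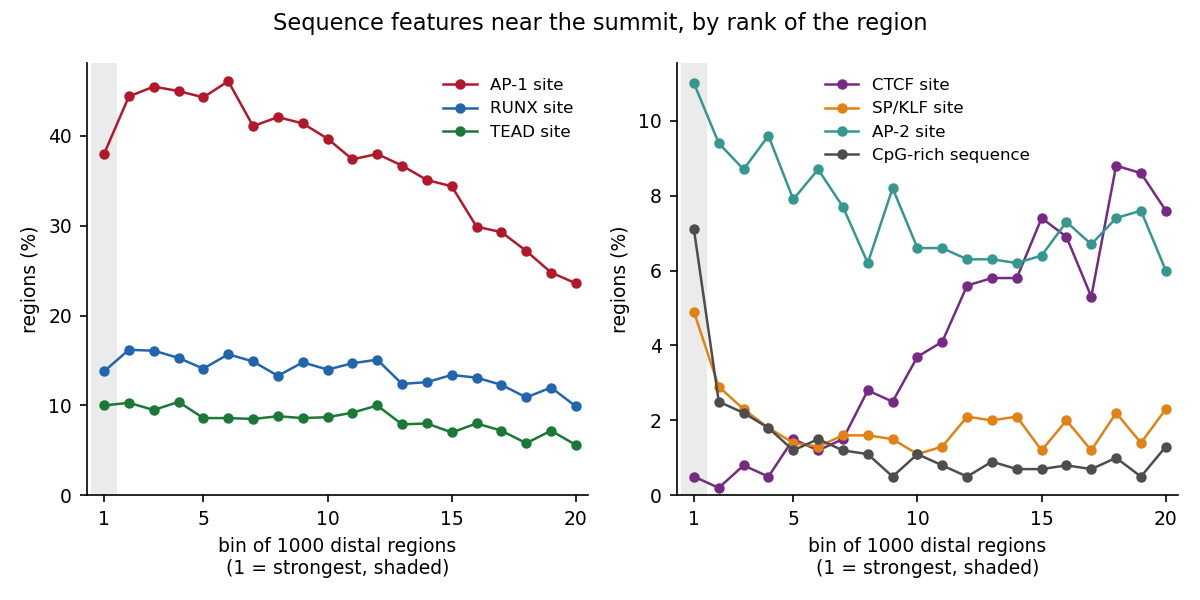
Share of regions (%) with an AP-1, RUNX or TEAD site (left) and with a CTCF, SP/KLF or AP-2 site or CpG-rich sequence (right), for the 20000 best-ranked distal regions in bins of 1000, from the strongest (bin 1, shaded, the members) to bin 20. CTCF rises from 0.500% in the members to 8.80% in bin 18, while CpG-rich sequence falls from 7.10% to 2.50% between the first 2 bins.

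CpG-rich sequence, defined as at least 50% GC and an observed to expected CpG ratio of at least 0.6 over 501 bp, was found at 71 members, or 7.10% (5.67% to 8.86%), and at 1.10% of the other distal regions. Such sequence is typical of promoters, and some members lay close to start sites that only the RefSeq annotation holds. A RefSeq start lay within 5 kb of 155 members (15.5%) and of 10.7% of the other regions, and inside 65 members (6.5%) and 2.70% of the others. Among the 845 members with no RefSeq start within 5 kb, CpG-rich sequence was found in 5.92% and SP/KLF sites in 4.73%, against 0.868% and 1.66% of the other regions without one. The members thus had the higher shares in this subset too.

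By the GENCODE annotation, 449 summits (44.9%, 41.8% to 48.0%) lay in introns, 527 (52.7%, 49.6% to 55.8%) between genes and 24 (2.4%) in exons. Of the other distal regions, 50.1% lay in introns and 47.5% between genes. The median distance to the nearest TSS was 19037 bp, against 17541.5 bp. The members were nearest to 928 different genes, 65 of them nearest to 2 or more members. They were spread unevenly over chromosomes, from 2.47% of the candidate regions on chromosome 7 and 2.99% on chromosome 6 to 6.90% on chromosome 15 and 7.26% on chromosome 19. The median centred log2 level of all candidate regions was -0.58 and -0.54 on chromosomes 7 and 6, and -0.63 and -0.58 on chromosomes 15 and 19. The copy number of the chromosomes in this abnormal karyotype was not tested.

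Most members stood alone. Neighbouring members were joined where the gap between them was 12320 bp or less, and the next wider gap was 12580 bp. By this measure 68 members fell into 33 stretches and 932 had no such neighbour. Only 2 stretches held 3 members. One spanned 21185 bp in an intron of Dlgap1, which codes for a postsynaptic scaffold protein (chr17:70719150-70740334, ranks 79, 250 and 610), and the other spanned 22824 bp near Rab11fip4, a Rab11 effector (chr11:79749688-79772511, ranks 145, 651 and 966). The best-ranked pair lay next to Nr4a1, an immediate-early orphan nuclear receptor, at 7808 and 13237 bp from its TSS (chr15:101238675-101248728, ranks 8 and 296).

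Few members lay nearest to genes of the lists considered. By nearest TSS, 6 of 41 genes of the mesenchymal and matrix programme, the longest list, had 1 member each, among them Cd44, Col1a1 and Timp3. This was 0.6% of the members, against 0.413% of the other distal regions. Of 12 AP-1 genes only Fos had members, with 2, or 0.2% against 0.0151% of the other regions. Of 18 YAP and TEAD genes, Ankrd1 and Ptpn14 had 1 each, or 0.2% against 0.0957%. Of 4 RUNX genes, Runx1 had 2 and Runx3 had 1, or 0.3% against 0.0302%. None of 14 neural progenitor genes and none of 12 p53 target genes had a member. These lists had 9 and 10 of the other distal regions, or 0.0453% and 0.0504%. Of 15 dopaminergic genes only Lmx1a, a midbrain homeobox factor, had a member, or 0.1% against 0.0352% of the other regions. These counts are too small to set the lists apart from one another.

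The region nearest to Lmx1a (chr1:167660146-167661896, 28183 bp from its TSS) had a fold enrichment of 60.8, 60.7, 58.4 and 59.0 at 37 °C and 64.0, 60.6, 73.3 and 36.8 at 39 °C. It held no site of the 28 motifs searched near its summit. The better-ranked region near Fos (chr12:85454095-85456668, 18557 bp from the TSS, rank 41) had 103.3, 107.9, 106.7 and 94.6 at 37 °C and 136.2, 109.8, 146.5 and 71.8 at 39 °C. It held SP/KLF, AP-2 and both kinds of E-box site but no AP-1 site.

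Levels at the 2 temperatures were compared with limma on log2 fold enrichment, after each library had been centred on its median over the 44861 regions called in all 8, with Benjamini-Hochberg adjustment over all of them (adjusted p below 0.05). The mean rank percentile over both temperatures chose the members, and a region that is low at one temperature cannot rank high on average. The lists at 39 °C were shorter, with 54845 to 68410 peaks against 74026 to 92013 at 37 °C. A place in the ranking thus counts for more percentile at 39 °C. The choice is therefore not independent of the difference between temperatures, and its part in the calls below was not tested. The median centred level of the members was 2.00, 2.01, 2.03 and 1.92 at 37 °C and 2.10, 2.15, 2.13 and 2.09 at 39 °C. All 4 libraries at 39 °C thus lay above all 4 at 37 °C, by a median difference (39 °C minus 37 °C) of 0.14 per member, against 0.06 over all regions tested.

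By this fit 408 members were higher at 39 °C (40.8%; background over all regions tested 26.9%) and 59 were lower (5.90%; background 19.6%). Without the 29 regions prone to artefacts the counts were 393 and 57. The split depended on the scaling. With quantile normalisation, which gives every library the same distribution of heights, 225 members were higher (22.5%; background 20.8%) and 185 were lower (18.5%; background 23.0%). Their median difference was then 0.01. The 225 and the 59 were called in the same direction under both scalings. Of all calls, 87.4% were higher with centring and 54.9% with quantile normalisation.

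Without any scaling, the fold enrichment as deposited gave 3 members higher (background 3.93%) and 4 lower (background 10.9%). When replicate 4 at 39 °C was left out, an alternative added after seeing the data, they were 331 (background 21.6%) and 34 (background 17.5%). With both libraries over 100 M fragments left out, the centred fit gave 370 higher (background 20.0%) and 79 lower (background 16.5%).

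The differences were small. They ranged from -0.58 to 1.14 on the log2 scale, with an SD of 0.212 over the members, against 0.261 over the next 1000 and 0.434 over all other distal regions. Only 5.80% of members differed by more than 0.5, against 8.6% of the next 1000 and 22.2% of all other regions. The median within-temperature SD was 0.084 in the members, 0.087 in the next 1000 and 0.136 in all others, and the part that peak height plays in this was not tested. Past a change of more than 2-fold, 1 member was higher (0.1%; background 1.64%) and 0 were lower (background 0.519%; limma, adjusted p below 0.05 in both). No member fell by more than 0.58. By size alone, 0.1% of members, 0.4% of the next 1000 and 3.16% of all other regions differed by more than 2-fold. The choice by mean rank over both temperatures limits such changes, since a region low at either temperature cannot rank high on average. How much of the narrow spread and of the few large changes comes from this choice was not tested. Both are therefore given as a description.

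**Figure D4:**
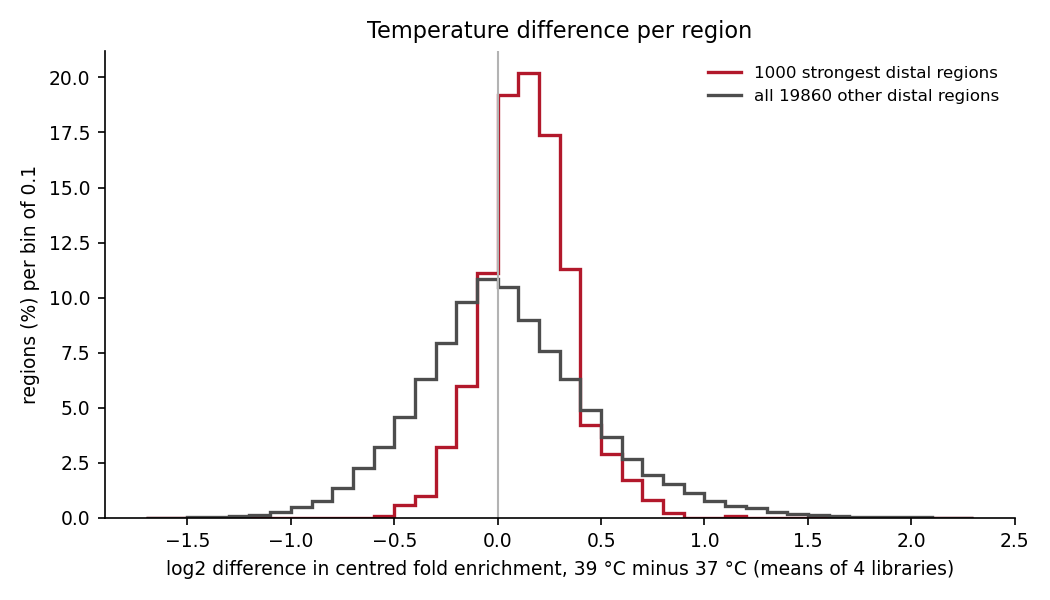
Log2 difference in centred fold enrichment between 39 °C and 37 °C (means of 4 libraries each), as the share of regions (%) in bins of 0.1, for the 1000 members and the 19860 other distal regions called in all 8. The members form a narrower distribution (SD 0.212 against 0.434), centred at 0.14 with this scaling. Their choice by mean rank over both temperatures limits large differences, and its part in the narrow spread was not tested.

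The only member with a change of more than 2-fold lay between genes, with the neutral amino acid transporter gene Slc1a4 as its nearest coding gene at 37915 bp (chr11:20369167-20371529, rank 681). Its fold enrichment was 38.1, 39.9, 39.8 and 43.3 at 37 °C and 85.6, 90.0, 98.6 and 49.6 at 39 °C. Each library at 39 °C lay above each at 37 °C, although replicate 4 lay closer to them. The log2 difference was 1.14 ± 0.07 (SE, n = 4 each; limma, adjusted p = 2.71e-13), and 0.96 without scaling.

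The next was 12518 bp from the TSS of Gcc2, a golgin of the trans-Golgi network (chr10:58309954-58311643, rank 958). It had values of 37.9, 37.9, 40.1 and 39.4 at 37 °C and 72.4, 67.1, 82.6 and 41.5 at 39 °C. The log2 difference was 0.90 ± 0.07 (limma, adjusted p = 1.84e-11). A region with Hmga2, a chromatin protein of proliferating cells, as its nearest coding gene at 151779 bp (chr10:120627403-120629153) had a difference of 0.77 ± 0.07, and a region in an intron of Mettl7a1 (chr15:100317453-100319585) one of 0.75 ± 0.07. In both of these, replicate 4 at 39 °C fell within the range of 37 °C before scaling and above it after.

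One of the 5 largest increases was at a repeat. In the region at chr12:3109788-3112095 (rank 11), 93.0% of the words were repeated, with a median of 44 copies. Fold enrichment there was 94.9, 143.1, 193.1 and 115.3 at 37 °C and 166.8, 198.8, 175.7 and 379.5 at 39 °C. The ranges overlapped, and replicate 4 at 39 °C alone lay far above the rest.

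The largest decrease was in an intron of Cacna1i, which codes for a T-type calcium channel (chr15:80316153-80320743, rank 566). Fold enrichment was 78.6, 80.6, 81.7 and 80.4 at 37 °C and 54.5, 53, 58.4 and 30.0 at 39 °C. The groups did not overlap, and the 4 values at 37 °C were close together. The log2 difference was -0.58 ± 0.07 (limma, adjusted p = 1.48e-07). A region with Socs5, a suppressor of cytokine signalling, as its nearest coding gene (chr17:87173450-87177412) followed at -0.49 ± 0.07. Regions nearest to Exoc6, a subunit of the exocyst (chr19:37514253-37516242), and in an intron of the zinc transporter gene Slc30a7 (chr3:115968136-115970071) had -0.48 ± 0.07 and -0.44 ± 0.07.

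The fifth, at 35301 bp from Ccn1, a matricellular protein and known target of YAP (chr3:145683891-145686824, rank 242), had 95.2, 97, 93.5 and 97.9 at 37 °C and 67.1, 66.6, 84.5 and 41.3 at 39 °C, with a difference of -0.43 ± 0.08 (limma, adjusted p = 3.44e-05). Its groups did not overlap either. These 5 were called lower with quantile normalisation as well.

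**Figure D5:**
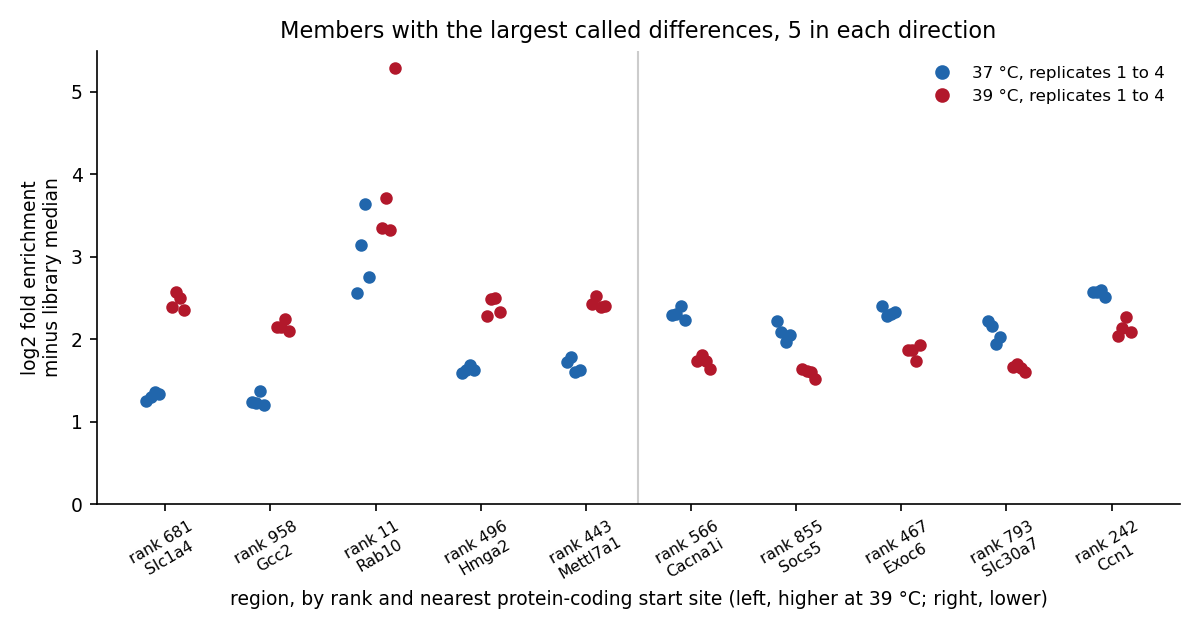
Log2 fold enrichment minus the median of the library for the 5 members with the largest called increase and the 5 with the largest called decrease, with 1 point per library (blue 37 °C, red 39 °C). The temperatures do not overlap in any of the regions except that of rank 11, and the regions were picked by this difference. Rank 11 is a repeat between genes, 199997 bp from its nearest coding start, that of Rab10. In it 1 library at 39 °C lies far above the others.

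The windows of the most changed regions are shown, with capitals at AP-1 sites and at the p53 decamer, the sequence bound by a dimer of the tumour suppressor p53. Of the 5 largest increases, 2 held the decamer and 1 an AP-1 site, and of the 5 largest decreases 3 held an AP-1 site and none the decamer. The windows of 5 of these 6 are given.
Increase, p53 decamer, rank 958, near Gcc2, chr10:58310828-58311028: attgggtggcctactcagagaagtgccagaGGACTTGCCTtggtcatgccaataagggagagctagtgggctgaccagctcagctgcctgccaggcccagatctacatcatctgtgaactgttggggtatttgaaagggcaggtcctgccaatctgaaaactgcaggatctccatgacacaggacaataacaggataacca
Increase, p53 decamer, rank 443, intron of Mettl7a1, chr15:100318361-100318561: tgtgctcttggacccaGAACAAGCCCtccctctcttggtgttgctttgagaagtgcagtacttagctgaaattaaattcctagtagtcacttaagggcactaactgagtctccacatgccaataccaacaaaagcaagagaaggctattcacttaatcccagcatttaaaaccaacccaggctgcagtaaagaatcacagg
Increase, AP-1, rank 496, nearest coding gene Hmga2, chr10:120628148-120628348: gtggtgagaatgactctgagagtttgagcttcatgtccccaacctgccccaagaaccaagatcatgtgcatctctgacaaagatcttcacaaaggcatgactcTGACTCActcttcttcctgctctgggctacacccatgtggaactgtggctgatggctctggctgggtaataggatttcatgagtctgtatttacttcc
Decrease, AP-1, rank 467, nearest gene Exoc6, chr19:37515022-37515222: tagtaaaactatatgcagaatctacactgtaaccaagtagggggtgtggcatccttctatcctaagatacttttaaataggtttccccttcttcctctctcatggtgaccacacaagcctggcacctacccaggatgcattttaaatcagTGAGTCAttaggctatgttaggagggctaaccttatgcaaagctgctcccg
Decrease, AP-1, rank 793, intron of Slc30a7, chr3:115968946-115969146: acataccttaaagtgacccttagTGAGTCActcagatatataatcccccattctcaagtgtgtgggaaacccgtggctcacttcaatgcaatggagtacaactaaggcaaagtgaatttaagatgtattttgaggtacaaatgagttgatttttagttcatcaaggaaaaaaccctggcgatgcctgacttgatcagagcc

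Over all members, 94 (9.40%) held the p53 decamer near the summit, against 8.04% of the other distal regions. With centring, 59 of the 94 were higher at 39 °C (62.8%) and 5 were lower, while 349 of the 906 without it were higher (38.5%) and 54 were lower. With quantile normalisation 41 of the 94 were higher (43.6%) and 15 lower, against 184 (20.3%) and 170 of the 906. Their median difference was 0.25 with the decamer and 0.13 without it, or 0.12 and -0.00037 with quantile normalisation. In the other distal regions the medians were 0.15 with the decamer and 0.01 without it, with centring. There 41.6% were higher and 16.2% lower with the decamer, against 27.4% and 24.2% without it. Over all regions tested, 26.9% were higher and 19.6% lower with centring, and 20.8% and 23.0% with quantile normalisation.

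The median centred level of the 94 was 1.93, 1.97, 1.97 and 1.89 at 37 °C and 2.14, 2.20, 2.17 and 2.11 at 39 °C. The 4 libraries at 39 °C were all higher than the 4 at 37 °C. Members with the decamer were thus slightly below the members without it at 37 °C, where those had 2.00, 2.01, 2.03 and 1.92, and slightly above them at 39 °C, where those had 2.10, 2.14, 2.13 and 2.08. None of the 94 was prone to artefacts by the measure above.

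For TEAD sites the values lay the other way. Of 100 members with one, 32 were higher at 39 °C and 18 lower, while of the 900 without one 376 (41.8%) were higher and 41 (4.56%) lower. With quantile normalisation 16 were higher and 31 lower, against 209 (23.2%) and 154 (17.1%). Their median difference was 0.08 with the site and 0.14 without it with centring, and -0.06 and 0.01 with quantile normalisation. In the other distal regions it was, with centring, -0.09 with the site and 0.02 without it. There 21.1% were higher and 34.8% lower with the site, against 29.2% and 22.6% without it. The shares over all regions tested were 26.9% and 19.6% with centring, and 20.8% and 23.0% with quantile normalisation.

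For AP-1 the difference was smaller, with 36.8% of 380 members with a site and 43.2% of 620 without one called higher, and 5.79% and 5.97% called lower. RUNX sites went with 42.8% of 138 called higher and 2.90% lower, against 40.5% and 6.38% of the members without one. Of the 71 CpG-rich members 36.6% were higher and 2.82% lower, while of the 219 other CpG-rich distal regions 8.22% were higher and 27.9% lower. Without the regions prone to artefacts, 33.3% of 66 CpG-rich members were higher and 3.03% lower. With quantile normalisation the AP-1 shares were 18.4% higher and 18.9% lower with a site, and 25% and 18.2% without one. The RUNX shares were then 24.6% and 16.7% with a site, and 22.2% and 18.8% without one. For CpG-rich sequence they were 21.1% and 9.86% in the members, and 5.48% and 30.1% in the other regions. In the other distal regions, with centring, 27.8% with an AP-1 site were higher and 25.4% lower, against 28.9% and 22.6% without one. For RUNX these were 36.6% and 20.4% with a site, against 27.2% and 24.1% without one. Over all regions tested, the shares were 26.9% higher and 19.6% lower with centring, and 20.8% and 23.0% with quantile normalisation. These shares are over regions of the same 8 libraries and were not tested against each other.

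Among members close to genes of the lists, both directions were found. The region of rank 766 in Runx1, a regulator of blood cell development (chr16:92776660-92780785), had a fold enrichment of 46.5, 49.8, 47.3 and 51.5 at 37 °C and 67.9, 68.4, 79.7 and 37.9 at 39 °C. Its log2 difference was 0.51 ± 0.07 (limma, adjusted p = 1.06e-06), and 0.41 with quantile normalisation. The other region of Runx1 (rank 456) had 0.30 ± 0.08 (adjusted p = 0.00353 by limma), which was not called with quantile normalisation (adjusted p = 0.069). That near Runx3, with values of 67.6, 65.1, 68.0 and 65.4 against 66.7, 63.1, 76.1 and 40.0, had 0.03 ± 0.07 (limma, adjusted p = 0.764).

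The region 7234 bp from Col1a1, a fibrillar collagen gene (chr11:94926216-94930953, rank 458), had 75, 82.3, 77.7 and 74.3 at 37 °C and 64.6, 53.3, 70.4 and 34.9 at 39 °C. It was lower at 39 °C by both scalings, with a difference of -0.34 ± 0.08 (limma, adjusted p = 0.00062), and the groups did not overlap. That nearest to Cd44, a hyaluronan receptor, was also lower, at -0.24 ± 0.07 (limma, adjusted p = 0.00784), and that nearest to Timp3, an inhibitor of matrix metalloproteinases, was higher, at 0.27 ± 0.07 (limma, adjusted p = 0.0022). The region in an intron of Tgfbr2 had -0.15 ± 0.07, and was called lower only with quantile normalisation. The region near Ankrd1, a YAP target, had -0.09 ± 0.08, and that near Ptpn14, a negative regulator of YAP, -0.04 ± 0.07, and both were likewise called lower only with quantile normalisation.

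The regions of the Nr4a1 pair were both higher at 39 °C with centring. The closer one (rank 8) had 126.5, 151.8, 160.8 and 131.6 at 37 °C and 168.7, 158.0, 186.2 and 99.7 at 39 °C, a difference of 0.25 ± 0.10 (limma, adjusted p = 0.043), and the other (rank 296) one of 0.40 ± 0.08 (limma, adjusted p = 9.34e-05). With quantile normalisation only the latter was called, at 0.26. Of the 3 regions in Dlgap1, that of rank 250 was higher (0.25 ± 0.08; limma, adjusted p = 0.0101), while those of ranks 79 and 610 had 0.12 ± 0.08 and -0.08 ± 0.07 and were not called. With quantile normalisation that of rank 250 was not called (0.10; limma, adjusted p = 0.208), nor was that of rank 79 (-0.07), and that of rank 610 was called lower (-0.19; limma, adjusted p = 0.01). None of the 3 near Rab11fip4 was called with centring, with differences from -0.07 to 0.08, and that of rank 966 was called lower with quantile normalisation (-0.18; limma, adjusted p = 0.0471).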

How the data were processed

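Peak lists of 8 ATAC-seq libraries were used, 4 at 37 °C and 4 at 39 °C. The authors aligned paired reads to mm10 with Bowtie2 2.4.1, removed duplicates with SAMtools 1.15.1 and Picard 2.26.11, and called peaks per library with MACS3 3.0.0a7, without a control or local background, at a q-value of 0.05 and with 1 fragment kept per position, which dropped 15.4% to 37.3% of fragments per the file headers. The deposited lists give the pileup signal in fragments, the fold enrichment (a ratio to one genome-wide background) and the −log10 q-value. The methods describe removal of regions prone to artefacts; the telomeric and mitochondrial matches reported here were still in the deposited lists.

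Peaks overlapping by 1 bp were merged, and TSS were those of GENCODE M21. With one background per list, rank by −log10 q equals rank by height. For tests, log2 fold enrichment of the best peak per region, with no pseudocount, was centred per library and fitted with limma 3.58.1 in R 4.3.3 (trended prior, no covariate), which was tested on simulated data. Heights are not read counts, so no count model was used. Of 28 motifs, sequence within 100 bp of the median summit was searched on both strands in GRCm38.p6 without mismatches. Motifs of 10 letters or more are given by name. Repeated words were counted over all chromosomes and mitochondrial matches found with BLAST 2.17.0. Intervals are Wilson 95% and cover counting error only.

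Members, gene lists, motifs and tests were chosen with earlier results of these data known. Named regions were the 5 best-ranked, the 5 most changed called members in each direction, the 3 on each side of the limit, the 3 largest stretches, the 2 best-ranked with each of 4 motifs and at most 3 per gene list; Cd44, Tgfbr2 and Timp3 were named in addition after their values were seen. One region that the rule names is not reported here. Alternatives were other scalings, thresholds, windows, TSS distances and left-out libraries.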

Additional observations from a re-analysis of the deposited data

Results flagged for a closer look

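In 96 groups of 4 libraries, the centred log2 level of each named member was examined, together with the medians per library of fold enrichment, centred level, peak width and rank percentile over the members and of fold enrichment over the other distal regions, for a library that stood apart by Dixon's ratio of gap to range at its 95% critical value. This flagged 4 groups, where chance alone flags about 1 in 20 groups, or 4.8 of 96.

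Of these, 3 were at regions of the top of the ranking and at 39 °C. Replicate 4 stood apart in each, at 5.44 in the region of rank 1 on chromosome 3, at 5.16 in that of rank 3 in an intron of Cmss1, nearest to Filip1l, and at 4.65 in that of rank 4 on chromosome 19, nearest to CR555305.2. These are levels after centring, which divides each value by the median of its library, 9.67 in replicate 4 at 39 °C and 15.1 to 17.5 in the other 7. As deposited, replicate 4 was the lowest of the 4 libraries at 39 °C at rank 1 (fold enrichment 419, against 427 to 528) and rank 4 (243, against up to 297), and lay within the range of the others at rank 3 (346, against 342 to 401). The remaining flag was at 37 °C, in the region of rank 649 nearest to Lmx1a, where replicate 4 was at 1.79. The regions of ranks 1 and 3 held repeated sequence in 59.1% and 64.9% of their words, and that of rank 4 in 1.75%. The part of repeated sequence in these values was not tested.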

How the results depend on the processing

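Of 122 recomputed values 109 counted as unchanged and 13 as moved. The tolerance was wide: 332 and 443 members called higher counted as unchanged against 408. Members called higher at 39 °C numbered 408; they were 225 with quantile normalisation, 3 with fold enrichment as deposited and 1 with a change of more than 2-fold required. Members called lower numbered 59; they were 185, 4 and 0 in the same settings, and 34 as deposited without replicate 4 at 39 °C, added after seeing the data. Leaving out 1 library at a time gave 332 to 443 higher and 46 to 63 lower. Over all 44861 regions it gave 9751 to 13663 higher and 7670 to 9275 lower. Backgrounds of the other settings stand beside their counts above. The share of members with a CTCF site went from 0.500% to 4.5% with free letters, and that with an AP-1 site from 38.0% to 55.7% within 250 bp; ranks without 1 library gave 0.500% throughout and 37.7% to 38.2%. The cause of each was not tested.

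With the replicate block the counts were 410 and 58, against 11982 and 8767 of all 44861 regions tested. The replicate numbers did not pair the libraries: deviations of same-numbered libraries correlated at 0.097, -0.11, 0.136 and 0.042. A constant prior variance gave 356 and 48, against 10876 and 8445 of all 44861. A minimum −log10 q of 5 gave 393 and 60, against 11390 and 8472 of all 42952 regions. Windows around summits gave 355 and 48, against 10907 and 8486 of all 42109 regions.

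The lists hold heights and not reads per region, so counting error per region is unknown, and how keeping 1 fragment per position affects heights in the deepest libraries was not tested. With 4 libraries per temperature, temperature, serum and time cannot be told apart. Sites were matched as letters, without binding data.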

Other observations

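Some genes with no member at their own nearest start were the nearest protein-coding gene of several members; the following were chosen after their values were seen. Hes1, a Notch target that keeps neural progenitors undifferentiated, had 3, all in introns of non-coding genes. The region of rank 396 (chr16:30023869-30025738, 39458 bp from the Hes1 TSS) had a fold enrichment of 54.5, 64.4, 58.6 and 60.8 at 37 °C and 79.6, 78.6, 99.6 and 46.3 at 39 °C, and was higher at 39 °C by 0.48 ± 0.08 (SE, n = 4 each; limma, adjusted p = 7.74e-06), or 0.35 with quantile normalisation. Those of ranks 20 and 195, at 148846 and 152973 bp, had 0.22 ± 0.10 and 0.18 ± 0.08 and were not called (limma, adjusted p = 0.0621 and 0.0629). Myc, a growth-promoting transcription factor, had 3 members at 299935 to 452424 bp, of ranks 19, 105 and 193. None was called with centring, and that of rank 193 was called lower with quantile normalisation, at -0.33 (limma, adjusted p = 0.0025).

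The rank that chose the members also orders them, so the following is a description. With centring, of the 250 best-ranked members 115 (46%) were higher at 39 °C and 5 (2%) lower, and of the last 250 these were 92 (36.8%) and 30 (12%), where the shares over all regions tested were 26.9% and 19.6%. With quantile normalisation they were 36 (14.4%) and 33 (13.2%) in the first 250 and 64 (25.6%) and 54 (21.6%) in the last, where the shares over all regions tested were 20.8% and 23.0%.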
